A study of Mus musculus with 36 samples.

Results

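The 10 apolipoprotein genes Apoa1, Apoa2, Apoa4, Apoa5, Apob, Apoc1, Apoc2, Apoc3, Apoe and Apoh were examined, out of 21418 protein-coding genes on the mouse autosomes (mm9). All CpGs from 5000 bp upstream of each gene to 1000 bp past its end were taken, in fixed windows of 500 bp. The 10 spans merged into 8 stretches of 190786 bp in all, which held 2258 CpGs of the deposited tables and 337 single-nucleotide variations (SNVs) between the strains. The spans held 379 windows with a CpG, of which 309 had 3 or more and 284 also had at least 30 reads in every animal and were tested. Over the whole genome 2580465 of 4254058 windows were tested by the same criteria.

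DNA methylation was measured in bulk liver by whole-genome bisulfite sequencing, in which unmethylated cytosines are converted and methylated cytosines are not. The 24 animals were 3 sires and 3 dams of each of 2 inbred mouse strains, B6 (C57BL/6N) and C3 (C3H/HeN), and 3 males and 3 females each of the reciprocal crosses, B6C3F1 (B6 dam, C3 sire) and C3B6F1 (C3 dam, B6 sire). Livers came from animals of 20 weeks in both generations. Matings had been set at 10 weeks and litters separated at 16, so that dams had borne and reared a litter and F1 females had not. Sex and reproductive history therefore differ together between sires and dams and cannot be told apart within the parents. Neither transgene nor agent was used, and no sequencing batch is given in the labels.

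Apolipoproteins are the protein components of the lipid particles that carry cholesterol and triglyceride in blood, and liver is a main source of most of them. Apob is the structural protein of very low density lipoprotein, Apoa1 and Apoa2 are those of high density lipoprotein, and the smaller exchangeable proteins steer lipases and receptors. CpG methylation near the start of a liver gene is commonly low where the gene is active in hepatocytes.

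Totals of 365740739 to 619888157 counts per animal lay on autosomal CpGs, or 19.4 to 32.8 reads per CpG, and autosomal methylation was 75.0 to 77.5%. Start regions, taken as 500 bp on either side of the 5′ end of a gene, were used to check the tissue. Medians over the 24 animals were 16.1 to 27.0% for the 6 hepatocyte markers, with Alb at 27.0%. They were 75.7 to 87.5% for the 3 leukocyte markers, and 75.8 and 87.7% for 2 of the 3 Kupffer cell markers, the other not being matched in the annotation. Endothelial markers ran from 2.19 to 64.6% and stellate cell markers from 2.08 to 44.6%, so that neither list held a uniform level. In bulk tissue a shift in methylation within a cell type and a shift in the mix of cell types cannot be told apart.

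Stretches of the windows and promoters on which the results turn are printed from mm9, 5′ to 3′ on the strand of the gene, with every CpG of the stretch in capitals. The first 2 are from introns of Apoh (plus strand), at chr11:108220501-108220630 and chr11:108220001-108220286, and are parts of the 500-bp windows with the largest strain difference and of the window adjoining it. They hold 4 of 4 and 3 of 4 CpGs of their windows, and the CpG left out of the second was at 19.7% in B6 and 19.9% in C3. The next is from an intron of Apoc1 (minus strand), at chr7:20275900-20276000, and holds 4 of the 5 CpGs of the window that separated dams from sires.
Apoh intron, part of the first window: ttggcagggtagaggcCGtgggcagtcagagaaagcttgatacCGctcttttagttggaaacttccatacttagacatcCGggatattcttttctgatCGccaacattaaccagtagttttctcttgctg
Apoh intron, part of the second window: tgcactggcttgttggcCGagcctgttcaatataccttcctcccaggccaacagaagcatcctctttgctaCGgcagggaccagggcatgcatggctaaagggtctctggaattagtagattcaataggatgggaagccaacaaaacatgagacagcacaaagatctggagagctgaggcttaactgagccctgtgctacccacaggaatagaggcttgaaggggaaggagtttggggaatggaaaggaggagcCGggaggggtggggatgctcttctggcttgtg
Apoc1 intron, part of the window: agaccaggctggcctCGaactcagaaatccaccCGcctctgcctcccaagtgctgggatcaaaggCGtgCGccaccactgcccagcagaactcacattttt
The 4 CpGs of the first Apoh sequence stand at its bases 17, 44, 80 and 99. With the reads of 6 B6 animals pooled they were methylated at 23.6, 38.6, 77.8 and 84.5%, against 13.0, 15.7, 17.6 and 18.9% in the 6 C3 animals. In the second sequence the CpGs at bases 18 and 72 were at 72.4 and 75.4% in B6 and 20.4 and 29.6% in C3, while the CpG at base 255 was at 25.6 and 16.1%. The CpGs of the Apoc1 sequence at bases 16, 34, 66 and 70 were at 18.6, 19.8, 22.0 and 46.8% in the 6 sires and at 20.0, 42.2, 56.7 and 80.4% in the 6 dams. The CpG of that window outside the sequence was at 38.6 and 71.5%.

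Promoters are shown for the members at either end of the range of start-region methylation, as 250 bases before the annotated 5′ end. Apoa4 (plus strand, chr9:46048529-46048778) had the highest level. The lowest was that of Apoh, but its annotated 5′ end lies inside the first exon of Prkca, so Apoe (minus strand, chr7:20284516-20284765), the next lowest, is shown, a choice made after the values were seen.
Apoa4 promoter: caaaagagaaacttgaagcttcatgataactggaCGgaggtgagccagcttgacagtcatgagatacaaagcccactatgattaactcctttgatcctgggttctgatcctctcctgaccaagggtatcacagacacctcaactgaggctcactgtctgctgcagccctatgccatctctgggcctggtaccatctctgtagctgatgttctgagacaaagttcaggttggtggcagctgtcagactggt
Apoe promoter: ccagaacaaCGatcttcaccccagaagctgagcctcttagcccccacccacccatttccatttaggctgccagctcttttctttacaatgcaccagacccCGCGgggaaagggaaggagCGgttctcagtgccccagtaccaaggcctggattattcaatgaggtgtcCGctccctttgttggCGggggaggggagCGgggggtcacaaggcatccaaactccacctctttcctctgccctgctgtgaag
The Apoa4 promoter holds 1 CpG, at 26.0% over the reads of all animals. The Apoe promoter holds 7, which lay between 0.760 and 2.69%.

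Methylation was low around the start of most members, but not always lowest there. The bodies of Apoa1, Apoa2 and Apoc3 lay below their start regions. Averaged over the 24 animals, 48 of the 284 windows lay under 20%, 135 from 20 to 80% and 101 over 80%, with a median of 66.9% and a range from 0.264 to 97.4%. Apoa1, Apoa2 and Apoc1 had no window over 80%, whereas the long genes Apob and Apoh were low only in parts. The spans also differed in CpG content, from 8.14 CpGs per kb in Apob to 21.6 in Apoe.

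**Figure D1:**
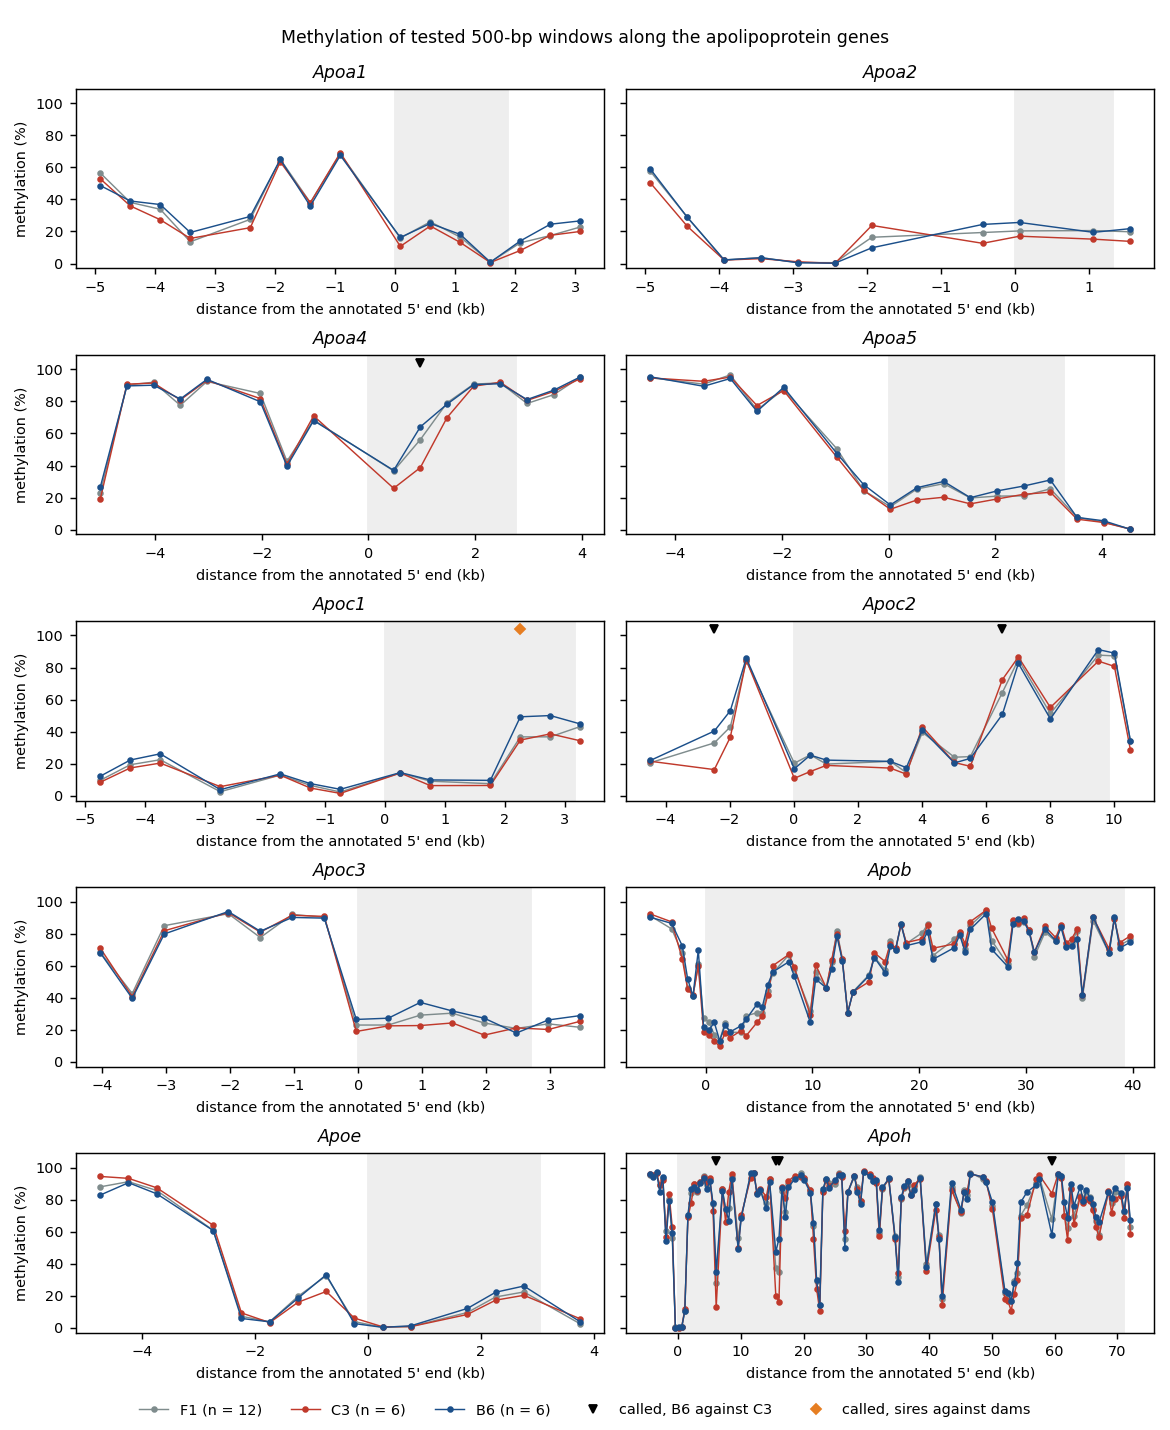
Mean methylation (%) of each tested 500-bp window against the distance of its middle from the annotated 5′ end (kb), for the 6 B6 parents, 6 C3 parents and 12 F1 animals, with the gene body shaded and called windows marked above. Most profiles are low at or near the 5′ end, the 3 lines run together over most windows, and the markers stand at 7 windows for B6 against C3 and 1 for sires against dams.

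Apoa1, Apoc3, Apoa4 and Apoa5 lie within 50 kb on chromosome 9. Apoa1 (chr9:46036663-46038549, plus strand), the main protein of high density lipoprotein and activator of cholesterol esterification, had a start region at 16.8% ± 4.66 (SD, n = 24) and a body at 7.60%. Its lowest window, exonic at chr9:46038001-46038500 with 27 CpGs, was at 0.821% on average. None of its 15 windows exceeded 80%.

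Apoc3 (chr9:46041016-46043719, minus strand), which inhibits triglyceride clearance, was at 30.3% ± 6.54 (SD, n = 24) at its start and 27.1% in its body. With all reads pooled, the start-region CpG at −369 bp was at 96.7% and the others were at 21.1 to 24.9%. Methylation rose to 75.0% in the upstream part of its span, which reaches up to its neighbor Apoa4. Its lowest window, an exon at chr9:46041001-46041500, was at 20.2%. No window of Apoc3 or Apoa4 lay under 20%.

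Apoa4 (chr9:46048779-46051542, plus strand), an apolipoprotein of intestinal and hepatic particles, departed from its neighbors. Its start region was at 33.0% ± 8.05 (SD, n = 24), the highest of the 10 at this extent, but its body was at 79.1% and its upstream part at 74.0%. With all reads pooled, CpGs within 250 bp of the start were at 26.0, 14.2 and 9.42%, and those further on at 6.89 to 58.5%. From the start onward 1 window, chr9:46049001-46049500, was under 50%. Its lowest window shares the start of Apoc3 and averaged 22.8%.

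Apoa5 (chr9:46076716-46080002, plus strand), which promotes triglyceride hydrolysis by lipoprotein lipase, was at 17.3% ± 4.40 (SD, n = 24) at its start and 21.3% in its body. Upstream it was at 77.4%. The lowest window of its span, 0.325% with 35 CpGs, is an exonic window of the neighboring gene Zfp259. No SNV lies in its span.

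Apoe, Apoc1 and Apoc2 form a cluster on chromosome 7. Apoe (chr7:20281458-20284515, minus strand), the ligand of the low density lipoprotein receptor family, had a start region at 1.97% ± 1.01 (SD, n = 24) with 29 CpGs. Its lowest window, over its first exons at chr7:20284001-20284500, was at 0.491%. Methylation was 13.3% over the body and 48.8% upstream, where the span enters Tomm40.

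Apoc1 (chr7:20274833-20278007, minus strand), which slows uptake of remnants, was at 13.3% ± 4.28 (SD, n = 24) at its start. All 13 of its tested windows were under 50%, and the whole span averaged 16.5%. The lowest, centered −743 bp from the 5′ end, was at 2.54%. Methylation rose only toward the 3′ end, to 42.5% in the part past the gene.

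Apoc2 (chr7:20256928-20266772, minus strand), the cofactor of lipoprotein lipase, is annotated from the same 5′ end as Apoc4, the next apolipoprotein gene. There its start region was at 24.2% ± 6.74 (SD, n = 24). Its own later starts differed, at 22.5% around position 20263290, 22.3% around 20262213 (5 CpGs, 6.25 to 46.7% between animals) and 81.3% around 20259269. The body as a whole was at 46.5%.

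Apoa2 (chr1:173155185-173156510, plus strand), the second protein of high density lipoprotein, was at 20.4% ± 5.49 (SD, n = 24) at its start and 18.6% in its body. The upstream part of its span was lower still, at 10.7%, and holds the windows of Tomm40l, down to 0.348%. None of its 11 windows exceeded 80%.

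Apob (chr12:7984454-8023641, plus strand), the structural protein of very low density lipoprotein, was at 22.7% ± 7.10 (SD, n = 24) at its start. Windows under 50% ran from 453 bp before to 6046 bp after the 5′ end, and the body of this gene of 39188 bp averaged 60.3%. Its lowest window, an intron at chr12:7985501-7986000, was at 12.4%. Of its 62 windows, 17 exceeded 80%.

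Apoh (chr11:108204668-108275710, plus strand) encodes beta-2-glycoprotein I, which binds phospholipid and is made in liver. Its annotated 5′ end, shared with the first exon of Prkca, was at 0.293% ± 0.189 (SD, n = 24) over 84 CpGs. The transcript with its longest coding sequence starts at position 108256607, 51939 bp further on, and there methylation was 20.5%. The body averaged 71.0%, and 65 of 114 windows exceeded 80%.

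Ranked against the 20415 start regions tested over the genome, 8 members lay between 57.9 and 64.9% of the way up, since the median of all start regions was only 6.36%. That ranking took no account of CpG content. Among the 5095 genes with 9 to 29 CpGs in the start region, the range of the members other than Apoh, the median was 73.8% (quartiles 33.7 and 85.9%), and the median over those 9 members was 20.4%. The members were not chosen by level, but they are liver genes, so this is a description and not a test.

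**Figure D2:**
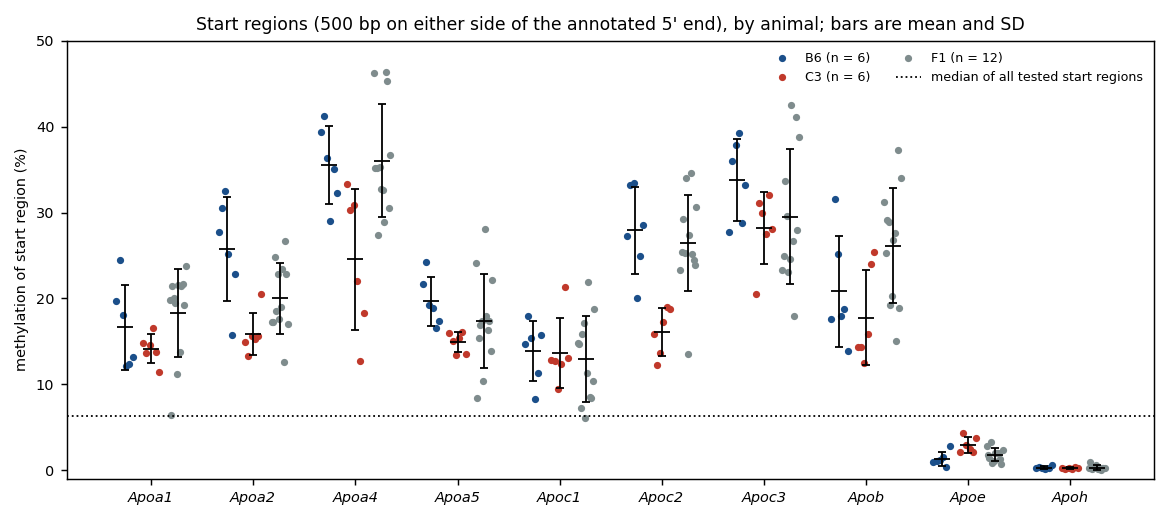
Methylation (%) of the start region of each member in every animal, with the mean and SD of the B6, C3 and F1 animals; the dotted line is the median of all tested start regions, 6.36%. Apoe and Apoh stay below that line in all animals, the other 8 members lie above it on average, and for Apoa2 and Apoc2 most B6 animals lie above the C3 animals.

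The first question was how far genotype sets methylation at these genes, and the 12 parents were compared by strain. A window was called when limma, run on the log2 ratio of methylated over unmethylated counts for all windows of the genome, gave a Benjamini-Hochberg adjusted p below 0.05 and the mean difference reached 20 percentage points. B6 and C3 parents differed at 7 of the 284 windows, or 2.46%, beside 0.436% of all windows tested. Methylation was higher in B6 at 5 of them, a direction called at 0.225% of all windows, and higher in C3 at 2, beside 0.211%. The shares over all windows were not matched for methylation level or CpG content. Of these 7 windows 4 lie in introns of Apoh as annotated, 2 at Apoc2 and 1 in an exon of Apoa4. Of the Apoh windows 2 adjoin and may not be separate differences. A window shifted by 250 bp that spans their border was also called, at 28.9 points. The Apoh windows other than chr11:108264001-108264500 lie more than 5000 bp before position 108256607. That is where the Apoh transcript with the longest coding sequence starts, so a span set from there would not hold them. No window of Apoa1, Apoa2, Apoa5, Apoc1, Apoc3, Apob or Apoe was called by strain over the 12 parents. Windows called by strain among sires alone or dams alone are not listed here.

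Without the minimum difference, 31 windows (10.9%) passed the adjusted p, 22 higher in B6 and 9 lower, beside 4.81% of all windows. Of these, 15 belonged to Apoh, which supplied 114 of the windows. The median difference, B6 minus C3, was 0.56 points over the members and −0.72 over all windows, and the median absolute difference was 3.10 and 1.63 points.

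**Figure D3:**
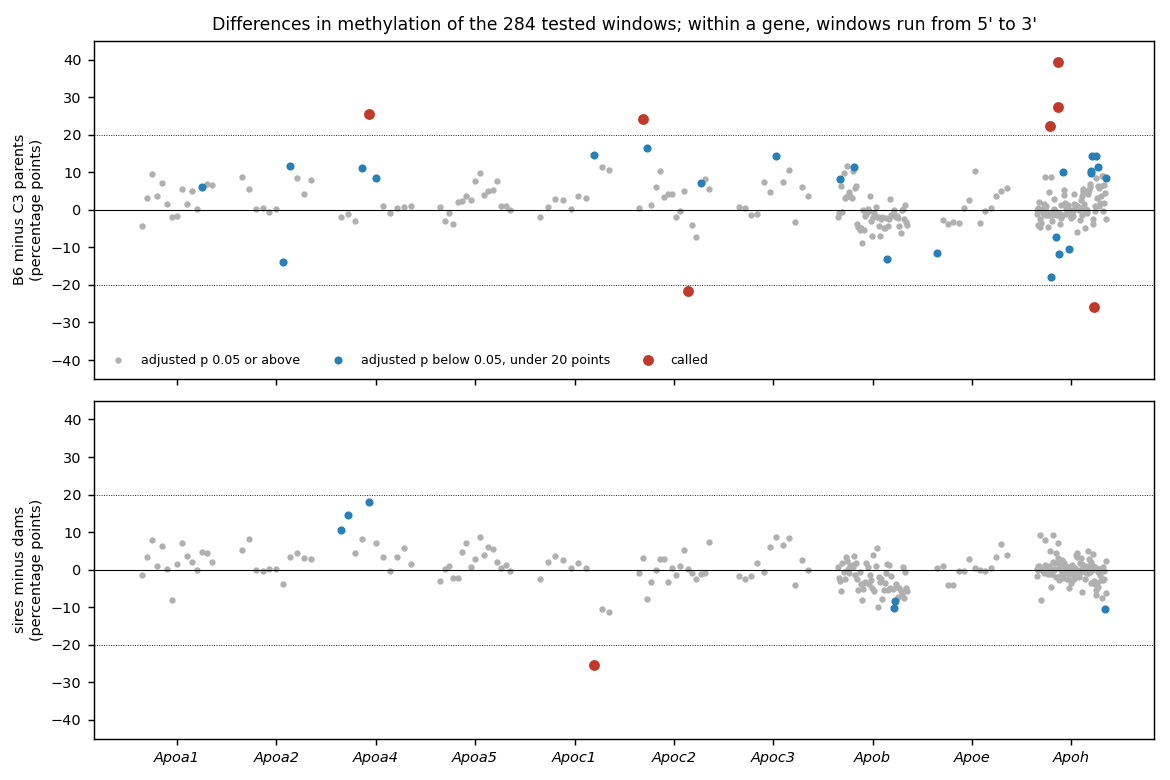
Difference in methylation (percentage points) of all 284 tested windows, B6 minus C3 parents above and sires minus dams below, with the windows of each gene in order from 5′ to 3′ and dotted lines at 20 points. The 7 called windows by strain stand at Apoa4, Apoc2 and Apoh, and the 1 called window between sires and dams stands at Apoc1.

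The largest strain difference was in an intron of Apoh, 16082 bp from its annotated 5′ end (chr11:108220501-108221000, 4 CpGs). In B6 sires the window was at 55.5, 66.4 and 58.8%, and in B6 dams at 45.5, 52.9 and 55.2%. In C3 sires it was at 13.4, 18.5 and 12.5%, and in C3 dams at 20.0, 12.4 and 20.9%. All B6 animals lay above all C3 animals, with a difference of 39.4 points (log2 ratio 2.67 ± 0.18 SE, adjusted p = 9.3e-12). The difference was in the same direction at 4 of 4 CpGs and widened along the printed sequence from 10.6 to 65.7 points. No SNV lies in the window, and the nearest is 71 bp away.

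The adjoining intronic window (chr11:108220001-108220500, 4 CpGs) was also higher in B6. Its values were 36.0 to 63.1% in B6 (median 43.6%) and 13.9 to 25.8% in C3 (median 20.2%), again without overlap. The difference was 27.3 points (log2 ratio 1.81 ± 0.18 SE, adjusted p = 4.9e-08). It came from the 3 CpGs of the printed sequence. An SNV, T108220430C (B6 base, mm9 position, C3 base), lies in the window.

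Another Apoh window lay nearer the annotated 5′ end, in an intron at chr11:108210501-108211000 with 8 CpGs. It was at 21.5 to 47.2% in B6 (median 37.4%) and 10.2 to 16.5% in C3 (median 12.8%). All B6 animals were above all C3 animals, by 22.2 points on average (log2 ratio 1.82 ± 0.21 SE, adjusted p = 5.6e-07). All 8 CpGs were higher in B6. The tested windows next to these 3 averaged 76.2 to 92.4% over all animals.

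The fourth Apoh window ran the other way (chr11:108264001-108264500, intron, 21 CpGs). It was at 50.5 to 60.4% in B6 (median 59.3%) and 72.2 to 93.8% in C3 (median 85.9%), a difference of −25.9 points (log2 ratio −1.99 ± 0.37 SE, adjusted p = 6.3e-04). The strains parted at the first 8 CpGs, which were at 17.4 to 36.4% in B6 and 57.1 to 80% in C3, whereas the other 13 were at 77.8 to 100% and 83.3 to 100%. Coverage was low here, 5.24 reads per CpG and animal in B6 and 3.45 in C3. Each of the 471 stretches of 30 bases in this window occurs more than once in mm9, and 451 occur over 10 times, so this value is uncertain, and the part of reads from other copies was not tested.

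Apoa4 showed 1 called window, over an exon 971 bp from its 5′ end (chr9:46049501-46050000, 6 CpGs). It was at 52.6 to 78.9% in B6 (median 62.1%) and 24.2 to 51.4% in C3 (median 39.7%), without overlap. The difference was 25.4 points (log2 ratio 1.55 ± 0.17 SE, adjusted p = 2.6e-07), with all 6 CpGs higher in B6. The neighboring windows toward the 5′ and 3′ ends differed in the same direction by 11.2 and 8.37 points (adjusted p = 0.011 and 0.046). The window holds no SNV, and the nearest is 1403 bp away. With windows shifted by 250 bp the difference was 19.1 points (adjusted p = 4.4e-05), under the minimum.

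At Apoc2 the 2 called windows differed in opposite directions. In the one upstream of the gene (chr7:20269001-20269500, intergenic, 6 CpGs), which also lies upstream of Apoc4, B6 animals were at 35.4 to 44.1% (median 41.0%) and C3 animals at 8.06 to 21.4% (median 16.7%). B6 was higher by 24.04 points (log2 ratio 1.77 ± 0.19 SE, adjusted p = 8.7e-08) and at 6 of 6 CpGs. The next window toward the gene was higher in B6 by 16.5 points (adjusted p = 0.0014).

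In the window within an intron of Apoc2 (chr7:20260001-20260500, 4 CpGs), C3 was the higher strain. B6 animals were at 44.6 to 54.8% (median 52.5%) and C3 animals at 63.2 to 78.7% (median 73.0%), a difference of −21.7 points (log2 ratio −1.33 ± 0.18 SE, adjusted p = 8.5e-06). All 4 CpGs were higher in C3. The call was lost with windows shifted by 250 bp, where the difference was −11.8 points (adjusted p = 0.0015). Each of the 2 windows holds 1 SNV, A20269171C and A20260341G.

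**Figure D4:**
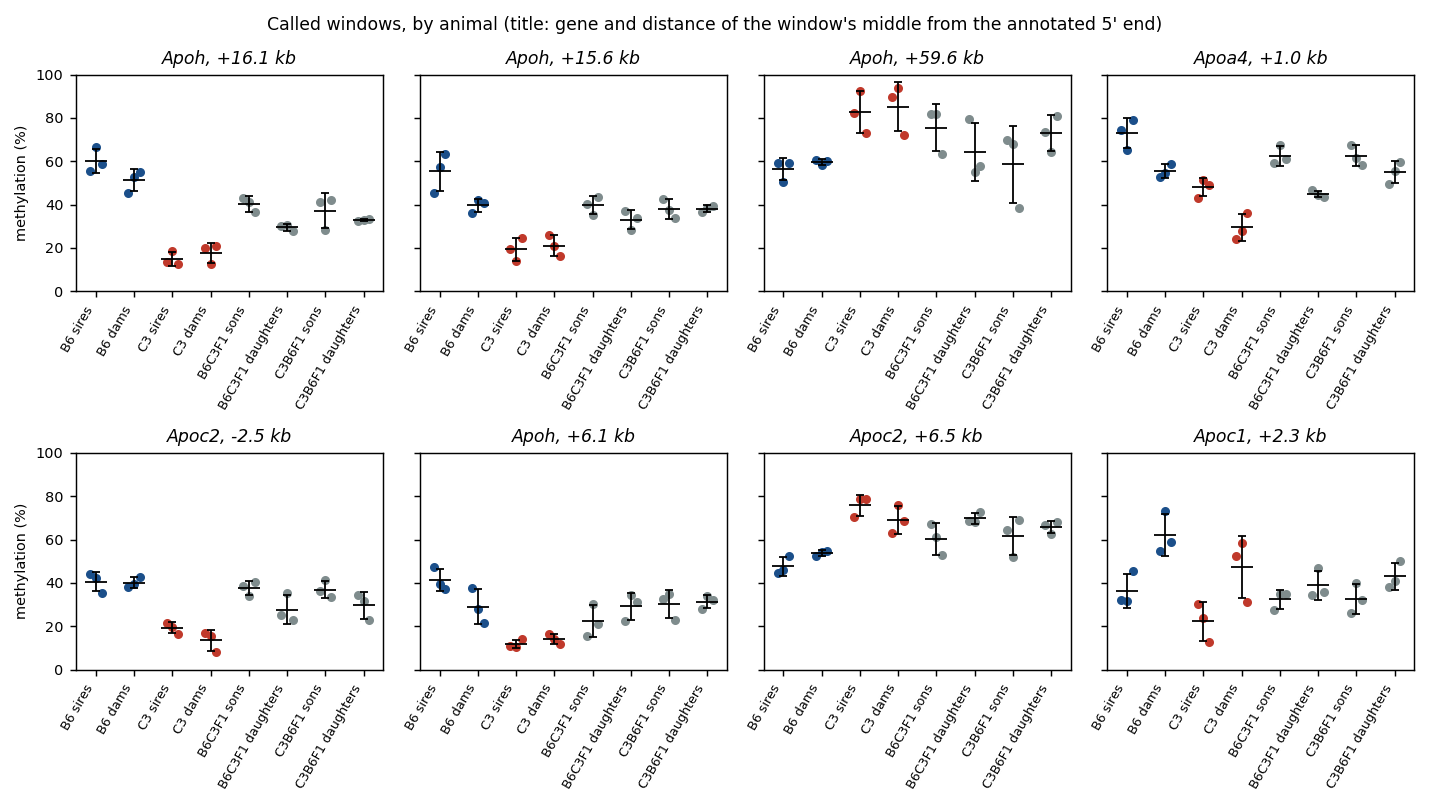
Methylation (%) of the 8 called windows in each of the 24 animals by group, with the mean and SD of the 3 animals of a group as bars. B6 and C3 parents do not overlap in the first 7 panels and F1 animals mostly lie between the means of the strains, whereas in the Apoc1 panel dams lie above the sires of their strain. The windows were chosen by these parental differences, and windows called elsewhere in the genome were not examined in this way.

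**Figure D5:**
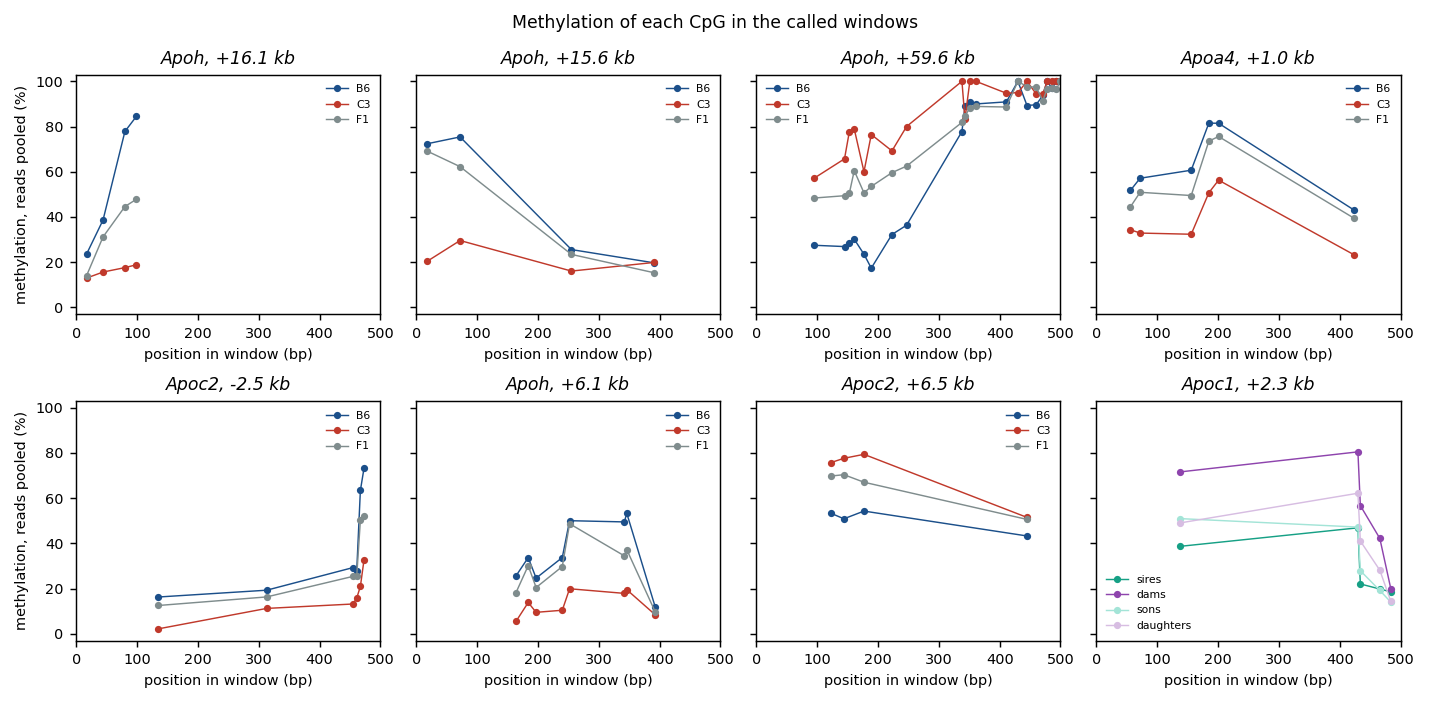
Methylation (%) of each CpG in the called windows, with reads pooled over the animals of a group, against its position in the 500-bp window; the Apoc1 panel shows sires, dams, F1 males and F1 females. Differences are largest at 2 of 4 CpGs in each of the first 2 Apoh windows and at the first 8 CpGs of the third.

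Reads of both strains had been aligned to mm9, and depth was lower in C3 at several members. The mean depth over the span was 22.6 reads per CpG in B6 and 12.9 in C3 at Apoc2, which has 3.66 SNVs per kb, and 22.3 and 22.0 at Apoa5, which has none. Its part in the strain differences was not tested across the members. In 5 of the 7 called windows no CpG lies within 50 bp of an SNV. Without such CpGs the upstream Apoc2 window kept 5 of 6 and differed by 25.4 points (adjusted p = 1.3e-07), and the adjoining intronic Apoh window could not be tested. Windows with an SNV were called at 3 of 119 and windows without at 4 of 165, while 19 and 12 of them passed the adjusted p alone, and the median absolute strain difference was 3.71 and 2.37 points. The same split was not made over all windows, so it cannot be read as particular to the members. Apart from the Apoh window described as uncertain, 1 of the 7 held stretches found more than once in mm9, the upstream Apoc2 window, at 9.98% of its 30-base stretches.

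The next question was where the crosses lay relative to the parental strains. Counts were not split by parental allele, so whether each allele kept its parental level was not tested. F1 animals fell between the means of the strains in 12 of 12 animals at the 3 Apoh windows that were higher in B6, in 11 of 12 at the Apoc2 intron and in 10 of 12 at the other 3 windows. At the window of largest difference the 12 F1 animals were at 27.7 to 43.2%, with a mean of 34.9% ± 5.73 (SD, n = 12) beside a midparent of 36.0%. All 12 lay in the gap between the lowest B6 and the highest C3 parent, whereas 0 to 8 of 12 did at the other 6 windows.

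The mean of the F1 animals and the midparent differed by at most 4.77 points at the 7 windows, where the F1 animals at Apoa4 averaged 56.2% and the midparent was 51.4%. The direction of the cross made no difference that passed the test. Between B6C3F1 and C3B6F1, 0 of 284 windows were called by limma, beside 0.000465% of all windows, 27 (9.51%, beside 6.30% of all windows) had an unadjusted p below 0.05 and 0 were called by a quasi-binomial test on the counts (0.000969% of all windows). The most different window, in an exon of Apoc3, differed by −10.4 points (adjusted p = 0.72).

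Sires and dams were then compared over both strains. Only 1 window of the 284 was called, 0.352%, beside 0.11% of all windows, or 0.0774% for calls higher in dams. It lies in an intron of Apoc1 (chr7:20275501-20276000, 5 CpGs), the window of the printed Apoc1 sequence. B6 sires were at 32.1, 31.6 and 45.5% and B6 dams at 54.5, 73.0 and 58.9%. C3 sires were at 30.3, 23.7 and 12.5% and C3 dams at 52.5, 58.2 and 31.1%. Each dam was above all sires of its own strain, although the lowest C3 dam was below the 3 B6 sires.

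Sires minus dams was −25.4 points (log2 ratio −1.59 ± 0.26 SE, adjusted p = 6.5e-04), with all 5 CpGs higher in dams. Within B6 the difference was −25.8 points (adjusted p = 0.10) and within C3 −25.1 points (adjusted p = 0.034), and the difference of these differences, B6 minus C3, was −0.678 points (adjusted p = 0.997). The call was lost with windows shifted by 250 bp, where the window over these CpGs differed by −12.1 points (adjusted p = 0.077). Of the 30-base stretches of the window 26.8% occur more than once in mm9, and 78 of 471 occur over 10 times, so this value is uncertain too. Which of its CpGs lie in repeated stretches, and the part of reads from other copies, were not tested. Without the CpG that lies 15 bp from an SNV the difference was −22.6 points (limma, adjusted p = 0.0080).

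F1 males and virgin F1 females at the same Apoc1 window lay closer together. Males were at 26.0 to 39.8% (median 33.4%) and females at 34.3 to 50% (median 39.6%), so that the groups overlapped. Males minus females was −8.52 points (adjusted p = 0.75). Dams exceeded F1 females by 13.7 points (adjusted p = 0.42). The difference of the sex effect between generations, −16.9 points, did not pass (adjusted p = 0.56).

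Apoa4 stood out below the minimum difference, with 3 of the 7 windows that passed the adjusted p alone (2.46%, beside 0.797% of all windows) and all 3 higher in sires. The exonic window that had differed by strain was at 43.2 to 78.9% in sires (median 58.4%) and 24.2 to 58.8% in dams (median 44.4%). Sires were higher by 18.0 points (log2 ratio 1.13 ± 0.17 SE, adjusted p = 2.4e-04), by 17.5 in B6 and 18.5 in C3. All 3 sires of each strain exceeded the 3 dams of that strain. In the F1 animals males exceeded females by 12.7 points (adjusted p = 0.061).

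The other 2 windows lie between Apoa4 and Apoc3, centered −1529 and −2029 bp from the 5′ end of Apoa4. In the first (chr9:46047001-46047500, 7 CpGs) sires were at 37.5 to 60.2% (median 47.1%) and dams at 26.2 to 37.9% (median 33.7%), a difference of 14.6 points (adjusted p = 0.018). Within C3 alone it was called, as 1 of 2 member windows with that of Apoc1 (0.704%, beside 0.157% of all windows), with sires at 49.1, 43.6 and 60.2% and dams at 26.2, 30.8 and 34.1%. The difference there was 20.6 points (adjusted p = 0.028) and within B6 8.57 points (adjusted p = 0.68), but the difference between the strains, −12.0 points, did not pass (adjusted p = 0.94). In the second (chr9:46046501-46047000, 8 CpGs) sires were at 80.2 to 90.6% and dams at 69.7 to 78.0%, without overlap, a difference of 10.7 points (adjusted p = 0.0028). Apart from the called Apoc1 window, the other 3 windows that passed were higher in dams. Dams exceeded sires by 10.6 points at an exonic window at the 3′ end of Apoh (adjusted p = 0.021) and by 10.2 and 8.34 points at 2 exonic windows of Apob (adjusted p = 0.017 and 0.038).

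No member window was called by limma between F1 males and F1 females, between dams and F1 females, between sires and F1 males, for the strain dependence of the sire and dam difference, or for its dependence on generation. The percentages called over all windows were 0.0571, 0.0179, 0.0012, 0.000581 and 0.0151. In the same order 28, 33, 16, 32 and 21 of the 284 windows had an unadjusted p below 0.05. These were 9.86, 11.6, 5.63, 11.3 and 7.39% of the member windows, beside 6.82, 7.50, 6.21, 5.34 and 7.06% of all windows. The quasi-binomial test called 0, 0, 0, 1 and 0, beside 0.0572, 0.0183, 0.00167, 0.014 and 0.0214% of all windows. A single window passed the adjusted p alone between dams and F1 females, an intronic Apoh window (chr11:108214001-108214500, 6 CpGs). Dams were at 41.8 to 47.7% and F1 females at 51.0 to 61.4%, without overlap, a difference of −11.7 points (adjusted p = 0.042), and 0.107% of all windows passed this adjusted p.

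The 1 window called by the quasi-binomial test lies at the start of Apob (chr12:7984001-7984500, 13 CpGs), where the sire and dam difference had opposite signs in the strains. B6 sires were at 19.3, 31.0 and 28.7% and B6 dams at 17.7, 21.0 and 12.9%. C3 sires were at 8.06, 15.2 and 11.4% and C3 dams at 21.9, 23.9 and 31.0%. The interaction was 23.1 points, with an adjusted p of 7.6e-04 in the quasi-binomial test and 0.31 in limma. The choice of test therefore decided this call.

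At the start regions, 0 of the 10 members were called by limma in any of the 8 comparisons, and 0 by the quasi-binomial test. Of the 80 member tests 16 (20%) had an unadjusted p below 0.05, beside 8.60% of the tests of all start regions. By strain 69 of the 20415 start regions were called (0.338%), and between sires and dams 22 (0.108%). In the other 6 comparisons, in the order given for the windows and starting with the reciprocal crosses, 0.0049, 0.0637, 0.0196, 0.0098, 0.0049 and 0.0147% of start regions were called. Of the members, 4 start regions passed the adjusted p by strain at smaller differences, beside 9.19% of all start regions. Apoc2 was at 20.1 to 33.5% in B6 and 12.2 to 18.99% in C3, a difference of 11.8 points (log2 ratio 0.99 ± 0.19 SE, adjusted p = 6.1e-04). This start region surrounds the 5′ end shared with Apoc4. Further on, the region around 20262213 held only 5 CpGs. It had 5.63 reads per CpG and animal in C3, where animals ran from 6.25 to 46.7%. Means in B6 and C3 were 23.6 and 21.3% around 20263290, 22.6 and 19.7% around 20262213 and 80.5 and 83.0% around 20259269. Apoa2 was at 15.8 to 32.5% and 13.3 to 20.5%, a difference of 9.90 points (adjusted p = 0.0021). These groups did not overlap at Apoc2 and overlapped at Apoa2. Among sires alone the strains differed by 17.4 points at Apoc2 (adjusted p = 6.9e-04) and 15.6 at Apoa2 (adjusted p = 0.0013), and among dams by 6.2 and 4.16 points (adjusted p = 0.36 and 0.54). The dependence of the strain difference on sex, 11.2 and 11.5 points, did not pass (adjusted p = 0.64 and 0.61).

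Apoa4 differed by 10.9 points by strain (adjusted p = 0.0030) and by 10.4 points between sires and dams (adjusted p = 0.041, passed by 0.509% of all start regions). Sires were at 30.3 to 41.2% and dams at 12.7 to 35.0%. By strain the difference was 14.4 points among dams (adjusted p = 0.0055) and 7.45 among sires (adjusted p = 0.39). Sires exceeded dams by 13.8 points within C3 (adjusted p = 0.045) and by 6.86 within B6 (adjusted p = 0.75), while the strain by sex term, −6.99 points, did not pass (adjusted p = 0.75). CpGs 391 to 474 bp past the Apoa4 start were, with reads pooled, at 38.0 to 71.7% in B6 and 28.6 to 45.7% in C3. They lie in the window adjoining the called exonic one. At 75, 231 and 288 bp past the 5′ end B6 was at 13.0, 10.0 and 5.56% and C3 at 14.2, 12.4 and 10.3%. At −216 and 312 bp B6 was at 28.3 and 37.6% and C3 at 21.3 and 30.6%. Apoe was lower in B6, at 0.319 to 2.82% against 2.10 to 4.34% in C3, a difference of −1.65 points (log2 ratio −1.28 ± 0.36 SE, adjusted p = 0.018). Its start region holds 12 SNVs. All 4 strain differences lost the adjusted p or, for Apoe, also the sign under other extents of the start region, as given in the closing section. With start regions set by the longest coding transcript, an alternative added after seeing the data, 5 members passed by strain, beside 9.0% of all such regions. For Apoa2, Apoa4 and Apoe the start was the same, so these regions were those already tested. Apoc3, 8.14 points higher in B6 (adjusted p = 0.035), then joined the 4. The Apoc2 start moved by only 13 bp, to a region of 11 CpGs in place of 12, which differed by 8.13 points (adjusted p = 0.034). At the start of the longest coding transcript of Apoh, B6C3F1 was lower than C3B6F1 by 7.44 points (unadjusted p = 1.7e-04, adjusted p = 0.26).

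To place the members among the genes that act with them, 43 genes of lipoprotein assembly, receptors, plasma remodelling, cholesterol efflux and their regulators, with 5 other apolipoproteins among them, were read from the same fit. Between B6 and C3, 11 of the 43 had a called window, 6 genes with one higher in B6 and 10 with one lower. For Apoc4, among the 6, it is the upstream Apoc2 window already counted. This was 0.569% of their 4039 windows, beside 0.436% of all windows. Ppara, a nuclear receptor of fatty acid oxidation, was higher in B6 by 52.0 points at its most different window, but this was its only called window in that direction and 4 others were lower in B6. Nr1h4, the bile acid receptor, was higher by 26.2 points at 1 called window and lower at 1 other. Rora, a nuclear receptor, was lower by 47.1 points at its most different window, with 3 called windows lower and 1 higher. Abcg1, a sterol exporter, was lower by 38.1 points, and both of its called windows were lower.

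Between sires and dams 7 of the 43 had a called window, 6 lower in sires and 1 higher (0.297% of their windows, beside 0.11%). Abca1, which loads cholesterol onto Apoa1, was lower in sires by 35.8 points, and Abcg1 by 30.1 points. At these windows F1 males were also lower than F1 females, by 27.0 and 26.0 points. Between F1 males and F1 females 3 of the 43 had a called window, all lower in males (0.0990% of their windows, beside 0.0571%). Lipc, the hepatic lipase, was higher in sires by 23.7 points, and was lower in dams than in F1 females by 26.5 points. For Lipc the sex effect differed between generations by 27.9 points (adjusted p = 0.030). Lipc was the only 1 of the 43 called between dams and F1 females or by generation. Each was 0.0495% of their windows, beside 0.0179 and 0.0151% of all windows. None of the 43 had a window called by limma between the reciprocal crosses, between sires and F1 males or for the strain dependence of the sire and dam difference.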

How the data were processed

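Whole-genome bisulfite sequencing libraries of the 24 animals were read as tables of methylated and unmethylated read counts per CpG. The authors filtered reads by quality, aligned them with Bismark 0.7.8 and Bowtie 0.12.8 to mm9, removed duplicates with the tool of Bismark, clipped mates where they overlapped and pooled each animal's libraries before they deposited the counts, and CASAVA 1.8.2 is also named. CpGs were deposited where the context held in both strains. All 48 count columns were used, on autosomes only.

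Counts were summed over fixed 500-bp windows, or over 500 bp on either side of the annotated 5′ end of each protein-coding gene (at least 2 CpGs). Methylation levels are percentages of methylated reads. The study's region callers were not used here. Windows with at least 3 CpGs and 30 reads in every animal were fitted with limma 3.58.1 in R 4.3.3 on log2((methylated + 1)/(unmethylated + 1)), with 8 groups in a single model, and p-values were Benjamini-Hochberg adjusted over all 2580465 windows or 20415 start regions, separately in each of 8 comparisons. Comparisons within a single strain or sex of the parents, given besides these 8, came from the same model and were adjusted likewise. Calls needed an adjusted p below 0.05 and 20 points. On simulated data for B6 against C3, 94.5% of 200 windows changed by 20 points passed the adjusted p among 70250 windows, as did 8 of the unchanged windows, of which 0 also reached 20 points. The 20-point minimum was not applied to the changed windows, so this is not the share that would be called. The simulation used the windows of a single chromosome and a fixed spread between animals, assumed and not taken from the data. It therefore does not give the sensitivity at the member genes. No change was simulated in the other comparisons. Tables and figures used Python 3.11.15, numpy 2.4.6, pandas 2.3.3 and matplotlib 3.10.9.

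Named are the members, their called windows, windows or start regions that passed the adjusted p, and, of the other listed genes, at most 2 per comparison and direction by their most different called window. Members and lists were chosen with earlier results of these data known. Per the study's methods each cross was represented by 3 families of a sire, a dam, a son and a daughter, so F1 males and females of a cross include siblings. Labels do not tie animals to families, and family was not in the model. Replicate numbers were not taken to pair the animals. The FOXA1 libraries of the series were not analysed here.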

Additional observations from a re-analysis of the deposited data

Results flagged for a closer look

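In 8 of 112 groups of 6 animals (both sexes of a strain or cross) at the named windows and start regions, 1 animal stood apart from the other 5, where chance gives about 1 group in 20. None was weighed further.

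At the uncertain Apoh window (chr11:108264001-108264500), B6 sire 2 was at 50.5% and the other B6 parents at 58.2 to 60.4%. At the Apoc2 intron (chr7:20260001-20260500), C3B6F1 male 2 was at 52.1% and the others at 62.8 to 69.1%. A further Apoc2 window (chr7:20263001-20263500) was at 27.7% in C3B6F1 female 3 and 4.44 to 12.3% in the others.

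In the lowest intron of Apob (chr12:7985501-7986000), B6 sire 2 was at 23.7% and the other B6 parents at 9.28 to 13.5%. At the Tomm40l window in the span of Apoa2 (chr1:173152501-173153000), C3 sire 3 was at 0.538% and the other C3 parents at 0. Start regions stood apart in 3 cases. C3 dam 3 was at 20.5% for Apoa2, where the others lay between 13.3 and 15.7%, and C3 dam 2 was at 21.4% for Apoc1, where the others lay between 9.43 and 13.1%. For Apoh, B6 dam 3 was at 0.592% and the others at 0.160 to 0.322%.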

How the results depend on the processing

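With a minimum difference of 10 points in place of 20, limma called 24 windows by strain, 6 between sires and dams and 1 between dams and F1 females (8.45, 2.11 and 0.352% of member windows, beside 2.22, 0.557 and 0.0896% of all windows), 3 of the 80 tests of member start regions (beside 0.307% of those of all start regions), and 34 of the 43 other genes in any comparison (16 at 20 points). With at least 100 reads in every animal, where 99 windows remained, the counts were 2 by strain and 0 between sires and dams, and 10 of the other genes. With at least 5 CpGs the strain count was 4 of 193 windows. Shifted by 250 bp, windows gave 0 calls between sires and dams. The quasi-binomial test gave 1 call for strain by sex. Leaving out 1 animal at a time gave 7 to 8 strain calls, 1 between sires and dams, 0 in the other 6 comparisons and at start regions, and 15 to 17 other genes. No shares over all genes, or over all windows at the 100-read and 5-CpG settings, stand beside these counts. They were not compared with the genome, and a gene with more windows, up to 1136 at Rora, had more chances of a call. The cause of these changes was not tested beyond the smaller number of windows.

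The start region of Apoe reversed to 0.0719 points (adjusted p = 0.988) with 1000 bp on either side. With 250 bp the strain differences were 5.12 at Apoa2 (adjusted p = 0.42), 1.82 at Apoa4 (adjusted p = 0.72), 5.94 at Apoc2 (adjusted p = 0.23) and −1.22 at Apoe (adjusted p = 0.16). The sire and dam difference at the start of Apoa4 lost the adjusted p in 11 of 24 fits without 1 animal, which gave 9.11 to 11.4 points and an adjusted p of at most 0.16, and that of Apoe by strain lost it in 3 (at most 0.084).

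Deviations of animals with the same replicate number correlated at −0.0085 to 0.062 over 84 pairs, none over 0.1, so the numbers were not taken as pairs. A weak tie may remain, since 19 of 24 animals correlated best, on average, with their own number, a hint from the data and not from the design. The replicate block left 7 strain calls and 1 call between sires and dams. Depth limits single CpGs, with 19.4 to 32.8 reads per CpG and animal, and windows under 30 reads were not tested.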

Other observations

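At the start of Apob, F1 animals were at 15.1 to 37.3%, with a mean of 26.1% ± 6.67 (SD, n = 12), beside 20.8% in B6 and 17.7% in C3. The groups overlapped. By sex, dams minus F1 females was −7.11 points (limma, adjusted p = 0.61) and sires minus F1 males −6.60 points (limma, adjusted p = 0.68), and neither passed the test.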
